A study of Rattus norvegicus with 9 samples.

Results

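Transcript levels of 10 marker genes of vascular smooth muscle cells and pericytes, out of 19367 genes measured, were examined in rat kidney. They were taken by symbol and comprise Myh11, Acta2, Tagln, Cnn1, Lmod1, Myl9 and Des of the contractile apparatus and cytoskeleton, and Rgs5, Notch3 and Pdgfrb of signalling in these cells. The 9 libraries fell into 3 groups of 3. The first was Wistar-Kyoto rats (WKY), a normotensive strain, and the second was spontaneously hypertensive rats (SHR), an inbred strain that develops high blood pressure. The third was SHR given dapagliflozin, an inhibitor of the glucose transporter SGLT2 of the proximal tubule, an oral dose of 10 mg/kg each day over 8 weeks. Both other groups received distilled water, and all rats were 3 months old at the start. The strain label reads Wistar-Kyoto for every library and the treatment label of the controls reads saline, so groups were taken from the titles. No gene was deleted or added, so the labels could be checked against no targeted gene. The libraries are not tied to named animals, and p-values measure the spread between these libraries.

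Vascular smooth muscle cells and pericytes, together called mural cells, wrap the endothelial tubes of blood vessels. In the kidney they form the contractile wall of the arteries and arterioles and line the capillaries, and the mesangial cells of the glomerulus are their close relatives. Their contractile state sets vessel diameter, and with it renal blood flow and glomerular filtration. They are recognised by the proteins of the smooth muscle contractile apparatus and by receptors that tie them to the endothelium. Platelet-derived growth factor B from endothelial cells acts on the receptor encoded by Pdgfrb, and the ligand Jagged1 acts on Notch3.

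Levels are given as FPKM, fragments per kilobase of transcript corrected for library size, as the authors deposited them. Differences are on the scale log2(FPKM + 1), which understates the change of weakly expressed genes. They were tested with limma over the 13127 genes with at least 1 FPKM in at least 3 libraries, and a gene was called at a Benjamini-Hochberg adjusted p under 0.05. Of the markers, 9 passed that filter. Lmod1 did not, since it stayed under 1 FPKM in every library, and it was not tested. The number of reads per library is not given in the sources used here. In RNA of kidney tissue, fewer cells of a type and less RNA per cell cannot be told apart.

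None of the 9 tested markers passed the test in any comparison. In SHR the mean of 8 markers lay above WKY and that of Rgs5 below it. In treated SHR the same count held against WKY, with 8 means above and 1 below, and Rgs5 showed the widest difference of all, 5.04 ± 2.03 FPKM (SD, n = 3) against 11.0 ± 2.71 (SD, n = 3) in WKY. Over all genes tested the log2 difference from WKY was positive for 64.1% in SHR and 64.6% in treated SHR.

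The markers covered a wide range of levels. Tagln had the highest mean over the 9 libraries at 26.3 FPKM, followed by Acta2 at 22 and Myl9 at 21.0, and these did not differ beyond their spread over the libraries. Rgs5 followed at 8.20 FPKM, Des at 6.55, Pdgfrb at 5.84 and Myh11 at 4.69, again without steps larger than the spread between neighbours. Notch3 at 2.31 FPKM, Cnn1 at 1.17 and Lmod1 at 0.67 each lay below the gene before them by more than the larger SD of the pair. Myl9 stood above Rgs5 by the same measure. The ranges of Myh11 and Notch3 were fully apart. Among the genes tested, the mean level of Tagln was at percentile 72.3 and that of Cnn1 at percentile 4.11. The markers of the contractile cell type were thus all detected, with Cnn1 and Lmod1, both restricted largely to mature smooth muscle, at the lower end.

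**Figure D1:**
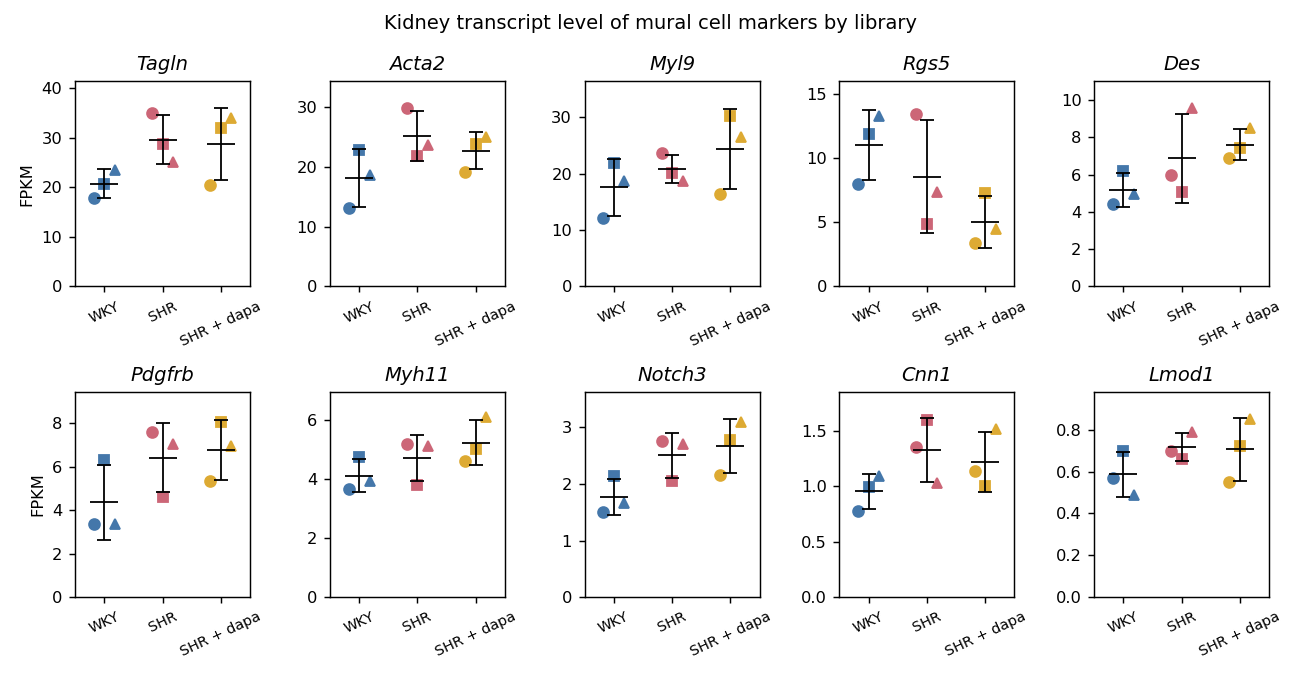
FPKM (vertical axes, linear from 0) of the 10 markers in WKY, SHR and SHR given dapagliflozin (SHR + dapa), with 1 point per library (circle, square and triangle for libraries 1, 2 and 3 of a group), the mean as a bar and the SD as error bars. Rgs5 runs from 8.00 to 13.2 FPKM in WKY and from 3.36 to 7.30 in treated SHR, whereas the means of the other 9 genes are lowest in WKY.

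Acta2 (gene ID 81633) encodes smooth muscle alpha-actin, the thin-filament actin of vascular smooth muscle. Its level was 13.1, 22.8 and 18.7 FPKM in WKY libraries 1 to 3, 29.9, 21.9 and 23.7 in SHR, and 19.2, 23.9 and 25.1 in treated SHR. The WKY and SHR ranges overlapped only through WKY library 2 and SHR library 2. Acta2 was 0.47 log2 units higher in SHR than in WKY (95% interval 0.02 to 0.92, adjusted p = 0.240 by limma), 0.14 lower in treated than in untreated SHR (log2 difference -0.14, adjusted p = 0.760), and 0.33 higher in treated SHR than in WKY (adjusted p = 0.238).

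The smooth muscle actin promoter is a textbook target of serum response factor, which binds the CArG box. Promoter sequence was taken from RefSeq on the build GRCr8, in which 5 of the 10 markers had an entry (Acta2, Cnn1, Des, Rgs5 and Notch3). The 250 bases before the start were searched on both strands. Sequence of Acta2, which held CArG-like elements, and of Rgs5, the marker that ran against the others, is shown 5′ to 3′ for the last 150 bases before each start. Capitals mark CArG boxes in which the core may hold up to 1 G or C. The Acta2 stretch lies at chr1:241172504-241172653 on the minus strand and the Rgs5 stretch at chr13:84380927-84381076 on the plus strand.
Acta2: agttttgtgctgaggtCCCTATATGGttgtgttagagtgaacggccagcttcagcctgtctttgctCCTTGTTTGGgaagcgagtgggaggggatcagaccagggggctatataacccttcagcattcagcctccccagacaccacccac
Rgs5: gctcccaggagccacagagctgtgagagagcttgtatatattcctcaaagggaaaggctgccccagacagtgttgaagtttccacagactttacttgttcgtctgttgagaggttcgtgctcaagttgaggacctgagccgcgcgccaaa

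The Acta2 elements begin at positions -134 and -84 from the start. Such relaxed CArG boxes occurred in 8.08% of the 33469 promoters of that length, and 2 or more of them in 0.693%. Acta2 was the only one of the 5 markers with one, and a strict CArG box, present in 1.5% of promoters, was found in none of the 5. The MCAT element CATTCC, bound by TEAD factors, was present in Acta2 and in 12.1% of promoters. The RBPJ core TGGGAA, the DNA site of Notch signalling, was present in Acta2 and Cnn1 and in 22.1% of promoters. The exact string TATAAA was in none of the 5 and in 12.9% of promoters. Variants of it were not searched, and the Acta2 stretch above holds tatataa, which that search does not count. These matches describe letters in a window and are not binding data.

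Myh11 (gene ID 24582) encodes smooth muscle myosin heavy chain, the motor of the thick filament. Its level was 3.67, 4.75 and 3.94 FPKM in WKY, 5.19, 3.81 and 5.14 in SHR, and 4.6, 5.02 and 6.09 in treated SHR. All 3 groups overlapped. The log2 difference was 0.15 for SHR against WKY (adjusted p = 0.564 by limma), 0.13 for treated against untreated SHR and 0.28 for treated SHR against WKY (adjusted p = 0.170). Its within-group SD of 0.18 log2 units was at percentile 58.9 of the genes tested, below that of Acta2, Tagln and Myl9.

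Myl9 (gene ID 296313) encodes the regulatory myosin light chain whose phosphorylation triggers contraction. Its 3 WKY libraries gave 12.1, 21.9 and 18.7 FPKM, SHR gave 23.7, 20.2 and 18.8, and treated SHR gave 16.4, 30.2 and 26.6. The groups overlapped, and library 1 was the lowest of both WKY and treated SHR. Its log2 difference was 0.27 for SHR against WKY (adjusted p = 0.570 by limma) and 0.45 for treated SHR against WKY (adjusted p = 0.216). Myl9 has close copies expressed outside muscle, Myl12a with a median of 156 FPKM and Myl12b with 297, so even a small share of exchanged reads would weigh on its value. The close copies of Acta2 in other muscle types were low: Actg2 was at most 0.62, Acta1 at most 1.04 and Actc1 at most 0.22 FPKM. The cytoplasmic actins were high, with a median of 685 FPKM for Actb and 719 for Actg1.

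Tagln (gene ID 25123), which encodes the actin-binding protein SM22-alpha, was the one marker whose SHR and WKY libraries did not overlap. Its levels were 17.73, 20.69 and 23.55 FPKM in WKY against 34.98, 28.79 and 25.03 in SHR. Treated SHR ranged across both groups, with 20.4, 31.8 and 34.0 FPKM. Tagln was 0.495 log2 units higher in SHR than in WKY (SE 0.20, 95% interval 0.04 to 0.95, adjusted p = 0.225 by limma). Against WKY, treated SHR was 0.43 log2 units higher (adjusted p = 0.140). Its log2 difference between treated and untreated SHR was -0.06 (adjusted p = 0.899).

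Cnn1 (gene ID 65204) encodes calponin, an inhibitor of actomyosin that is a late marker of smooth muscle differentiation. Its levels were 0.78, 0.99 and 1.09 FPKM in WKY, 1.35, 1.6 and 1.03 in SHR, and 1.14, 1.0 and 1.52 in treated SHR. Lmod1 (gene ID 304816), a leiomodin that nucleates actin filaments in smooth muscle, was at 0.57, 0.70 and 0.49 FPKM in WKY, 0.70, 0.66 and 0.79 in SHR and 0.55, 0.72 and 0.85 in treated SHR. The groups of both genes overlapped. Cnn1 was 0.25 log2 units higher in SHR than in WKY (adjusted p = 0.378 by limma) and 0.18 higher in treated SHR than in WKY (adjusted p = 0.383). At levels this close to the pseudocount of 1, log2 differences are compressed.

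Des (gene ID 64362) encodes desmin, the intermediate filament of muscle cells, also made by mesangial cells. WKY libraries held 4.41, 6.20 and 4.96 FPKM, SHR libraries 5.98, 5.04 and 9.57, and treated libraries 6.87, 7.43 and 8.49. Treated SHR lay wholly above WKY, whereas SHR spanned both, with library 3 the highest of all 9. The log2 difference between treated SHR and WKY was 0.48 (unadjusted p = 0.0425, adjusted p = 0.112 by limma), and between SHR and WKY it was 0.31 (adjusted p = 0.414).

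Rgs5 (gene ID 54294) encodes a regulator of G-protein signalling that shortens the response to vasoconstrictor receptors and is a leading marker of pericytes. Its level was 8.00, 11.8 and 13.2 FPKM in WKY, 13.4, 4.85 and 7.34 in SHR, and 3.36, 7.30 and 4.46 in treated SHR. All treated libraries lay below all WKY libraries. SHR library 1 was just above the highest WKY library, and SHR libraries 2 and 3 were below every WKY library. Rgs5 was lower by 1.02 on the log2 scale in treated SHR than in WKY (log2 difference -1.02, SE 0.35, 95% interval -1.81 to -0.23, unadjusted p = 0.0175), which missed the threshold after adjustment (adjusted p = 0.0641 by limma). Against untreated SHR the treated difference was -0.61 (95% interval -1.40 to 0.18, adjusted p = 0.409), and SHR against WKY it was -0.41 (95% interval -1.20 to 0.38, adjusted p = 0.536). Its within-group SD of 0.51 log2 units was at percentile 95.8 of the genes tested, the highest among the markers.

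The call on Rgs5 turned on the scaling. With quantile normalisation or median-of-ratios scaling its difference between treated SHR and WKY was -1.14 and passed (adjusted p = 0.0436 by limma in both). Over all alternatives tried its adjusted p ran from 0.0436 to 0.18 and its difference from -1.27 to -0.81, with the same sign throughout.

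Notch3 (gene ID 56761) encodes the Notch receptor of arterial smooth muscle. The 3 WKY values were 1.51, 2.13 and 1.66 FPKM, those of SHR 2.75, 2.05 and 2.71, and those of treated SHR 2.15, 2.78 and 3.09. Treated SHR lay just above WKY with no overlap, and only SHR library 2 fell within the WKY range. The log2 difference was 0.34 for SHR against WKY (unadjusted p = 0.0471, adjusted p = 0.251 by limma) and 0.41 for treated SHR against WKY (unadjusted p = 0.0227, adjusted p = 0.0752).

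Pdgfrb (gene ID 24629) encodes the platelet-derived growth factor receptor beta, which mural cells need for recruitment to vessels and which fibroblasts also carry. WKY had 3.35, 6.32 and 3.38 FPKM, SHR had 7.58, 4.59 and 7.04, and treated SHR had 5.32, 8.06 and 6.94. WKY library 2 stood well above the other WKY libraries, which were the lowest of all 9, and made the groups overlap. The log2 difference was 0.49 for SHR against WKY (adjusted p = 0.309 by limma) and 0.57 for treated SHR against WKY (95% interval 0.01 to 1.13, adjusted p = 0.119). Without WKY library 2 the latter was 0.82 and passed (adjusted p = 0.0311).

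**Figure D2:**
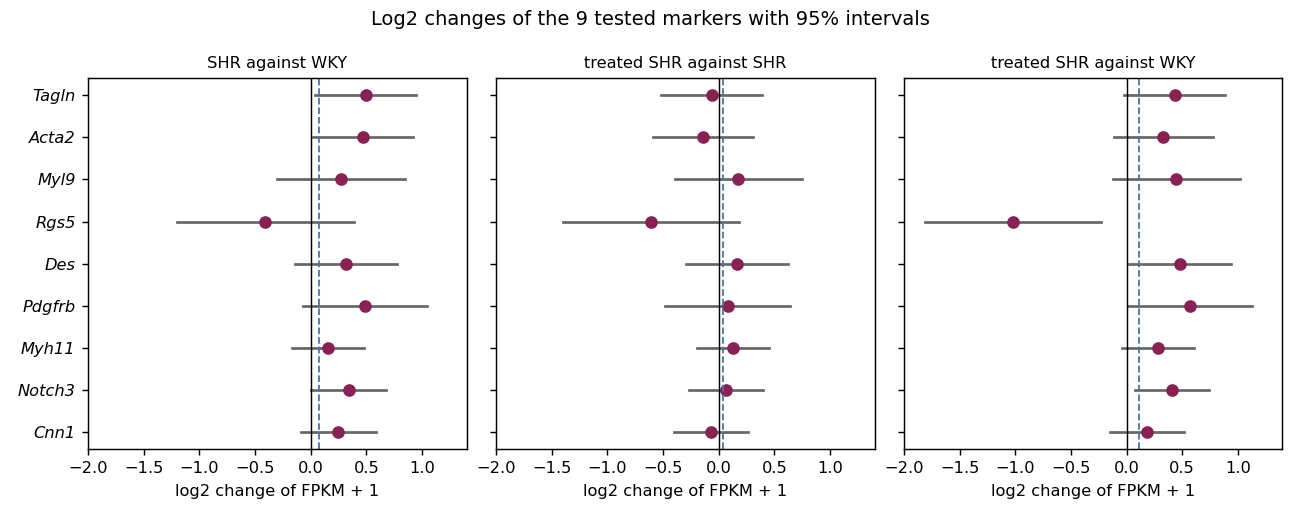
Log2 change of FPKM + 1 (horizontal axes) of the 9 tested markers in the 3 comparisons, as points with 95% intervals from limma. The dashed line is the median over all 13127 genes tested and the solid line is 0. The Rgs5 interval against WKY in treated SHR ends at -0.23, while the other 8 points of that panel lie between 0.18 and 0.57.

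Between SHR and WKY, limma called 0 of 9 markers, where 2.96% of all genes tested were called. The unadjusted p was under 0.05 for 3 markers (Acta2, Tagln and Notch3) and for 2566 genes in all. SHR lay wholly above WKY for 1 of 9 markers, Tagln, against 20.3% of all genes. No marker lay wholly below, against 8.11% of all genes. The median difference of the markers was 0.31, and that of all genes was 0.07.

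Between treated and untreated SHR, limma called 0 of 9 markers and 0 of all genes (0%). The unadjusted p was under 0.05 for 0 markers and for 1997 genes in all. No marker separated the groups, where 12.6% of all genes were wholly higher and 6.44% wholly lower after treatment. Means were higher after treatment for 5 markers and lower for 4, where the difference was positive for 57.4% of all genes. The median difference was 0.07 beside 0.04 over all genes. The interval of Myh11 ran from -0.195 to 0.45 and that of Rgs5 from -1.40 to 0.18, so differences of these sizes were within the error of 3 libraries a group.

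Between treated SHR and WKY, limma again called 0 of 9 markers, against 22.9% of all genes. The unadjusted p was under 0.05 for 4 markers (Des, Rgs5, Notch3 and Pdgfrb) and for 5276 genes in all. Des and Notch3 were wholly higher in treated SHR, 2 of 9 markers beside 28.2% of all genes, and Rgs5 was wholly lower, 1 of 9 beside 10.4%. The median difference was 0.41 for the markers and 0.11 over all genes. Another scaling moved the all-gene median of this comparison to 0.01 (quantile) or -0.01 (median of ratios), and the median of the markers to 0.29 or 0.30. This comparison shares the WKY libraries with the first and the treated libraries with the second. Treated SHR and WKY differ in strain as well as treatment, so a difference between them does not measure the drug alone.

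Library-wide shifts ran through the marker values. WKY library 1 was the lowest of its group for 9 of 10 markers, and so was treated library 1. In SHR, library 1 was the highest for 7 markers and library 2 the lowest for 7. Summed over the 10 markers the level was 65.2, 98.3 and 89.8 FPKM in WKY, 126, 93.5 and 101 in SHR, and 79.9, 118 and 117 in treated SHR. The 3 groups overlapped on this sum. With treated library 1 left out, Tagln (0.655, adjusted p = 0.0138), Myl9 (0.70, adjusted p = 0.0374) and Notch3 (0.51, adjusted p = 0.0302) passed limma's test as higher in treated SHR than in WKY. With WKY library 1 and treated library 1 both left out, Tagln and Myl9 passed (adjusted p = 0.0358 and 0.0414).

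**Figure D3:**
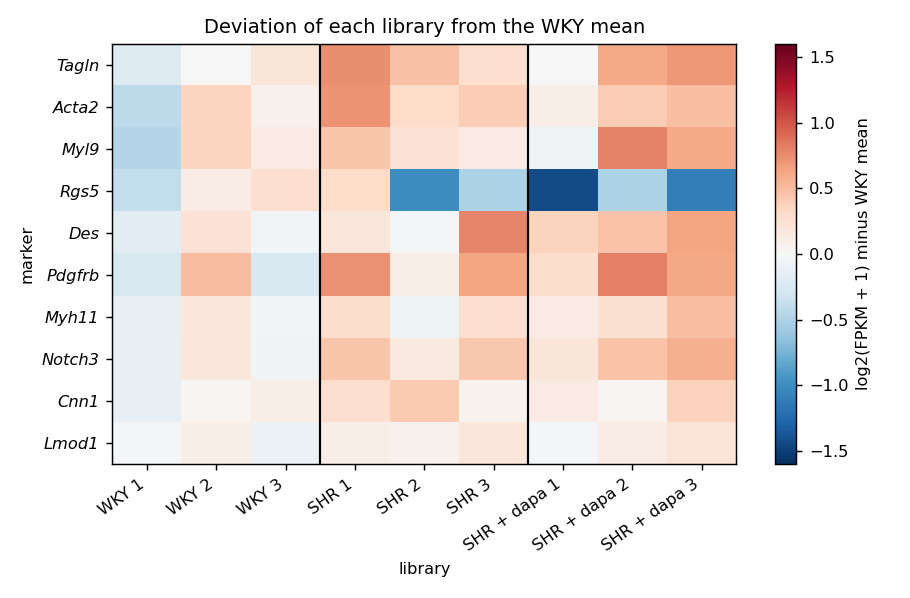
Log2(FPKM + 1) of each marker (rows) in each library (columns), as the difference from the WKY mean of that marker, in colour from blue (lower) to red (higher). WKY 1 is blue or near white across the rows, most SHR and treated columns are red, and Rgs5 is blue in SHR 2, SHR 3 and all treated libraries.

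After centring each group on its mean, the markers moved together between libraries. The median Pearson r over the 45 pairs of markers was 0.63 across the 9 libraries, with 41 pairs above 0. Over all gene pairs tested the median was 0.09 and 55.8% were above 0. All these values share the libraries, their scaling and their depth, so r is a description. The closest pair was Myh11 and Notch3 (r = 0.955), followed by Notch3 with Pdgfrb (0.893) and Acta2 with Myl9 (0.885). The least alike were Cnn1 and Des (-0.316). Each marker was also set against the mean of the other 9: r was 0.926 for Notch3, 0.925 for Acta2, 0.69 for Rgs5, 0.418 for Des and 0.067 for Cnn1. With WKY library 1 and treated library 1 left out after the centring, the median over pairs was 0.464. The group means used still held those libraries, so this value is not free of them. No value over all gene pairs was computed beside it.

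Rgs5 thus followed the other markers from library to library within a group (median r of 0.638 over its 9 pairs), while its group means ran the other way. Taken as log2(FPKM + 1) minus the mean of the other 9 markers, its relative level was 0.798, 0.883 and 1.245 in WKY, 0.829, -0.216 and 0.125 in SHR, and -0.585, 0.033 and -0.655 in treated SHR. Every treated library was below every WKY library on this measure, and SHR library 1 remained within the WKY range. The genes whose centred values were most like the mean of the markers were Rnf145 (r = 0.994), Plxnd1 (0.983), B3glct (0.983), Tnfsf10 (0.982), P3h3 (0.982), Hmgb2l1 (0.982), Thbd (0.981), Alcam (0.978), Map7d1 (0.978) and Lamc1 (0.978), over 9 libraries.

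Further genes of the contractile apparatus, 26 in number with 20 tested, gave 0 calls between SHR and WKY (unadjusted p under 0.05 for 3) and 4 between treated SHR and WKY, all higher, where 22.9% of all genes were called and 73.5% of those calls were higher. The median difference was 0.17 in both comparisons. Csrp1 encodes a LIM-domain protein of the actin cytoskeleton. Its level was 76.4 ± 17.2 FPKM in WKY, 114 ± 3.38 in SHR and 150 ± 35.1 in treated SHR (SD, n = 3). The log2 difference of treated SHR from WKY was 0.965 (adjusted p = 0.0143 by limma). Hspb6, a small heat shock protein of muscle, rose by 0.53 (adjusted p = 0.0199). Pdlim3, a LIM protein of actin fibres, rose by 0.73 (adjusted p = 0.0216), and Mrvi1, the target of cGMP-dependent kinase at the calcium store, rose by 0.63 (adjusted p = 0.0338). Each of these 4 lost its call without WKY library 1 and without WKY library 3. Treated library 3 had the same effect on Hspb6, Pdlim3 and Mrvi1, and treated library 2 on Hspb6 and Mrvi1. A fit of the WKY and treated libraries alone also ended the calls on Hspb6, Pdlim3 and Mrvi1. Pln, which encodes the calcium pump inhibitor phospholamban, was at 0.63 FPKM in WKY and 1.33 in SHR and did not pass (adjusted p = 0.121).

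Of 12 genes that control smooth muscle transcription, 9 were tested and 3 rose in treated SHR against WKY, with a list median of 0.12, beside 22.9% called and a median of 0.11 over all genes. Srf, serum response factor, was 0.335 higher (adjusted p = 0.0463 by limma), its coactivator Mrtfa 0.42 higher (adjusted p = 0.0396) and the T-box factor Tbx2 1.055 higher (adjusted p = 0.0182). In SHR against WKY, Srf was 9.93 ± 1.35 FPKM against 13.7 ± 0.491 (SD, n = 3) and did not pass (adjusted p = 0.0632). The calls on Srf and Mrtfa held in 3 of 16 alternatives each and were lost without WKY library 1 or 3, any SHR library, or treated library 2 or 3 (Srf also without WKY library 2). Both other scalings, testing without the filter and a fit of the WKY and treated libraries alone ended these calls too. The call on Tbx2 held in 11 and was lost without WKY library 1 or 3, treated library 2 or 3, or in the fit of those groups alone.

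Pericyte and mesangial genes other than the 10 markers, 16 with 14 tested, gave 0 calls between SHR and WKY (median 0.09, unadjusted p under 0.05 for 3) and 4 rises in treated SHR against WKY (median 0.32), beside 22.9% of all genes called in the latter. Gata3, a transcription factor of mesangial cells and also of the collecting duct, rose by 1.34 (adjusted p = 0.0087 by limma) and kept its call in all 16 alternatives. Thy1 encodes a surface antigen of rat mesangial cells. Its level was 5.74 ± 1.88 FPKM in WKY, 12.9 ± 4.41 in SHR and 17.0 ± 4.24 in treated SHR (SD, n = 3). The log2 difference of treated SHR from WKY was 1.43 (adjusted p = 0.0136 by limma). Gja4, a gap junction protein of the vessel wall, rose by 0.83 (adjusted p = 0.0146), and Itga8, the mesangial integrin, by 0.70 (adjusted p = 0.0432). The call on Thy1 was lost without WKY library 3, that on Gja4 without WKY library 1 or 3, and that on Itga8 without WKY library 1 or 3, SHR library 1, treated library 2 or 3, the low-value filter, or with median-of-ratios scaling or the 2 groups alone.

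Among 17 ligands, receptors and targets of Notch and PDGF signalling, 16 were tested. For SHR against WKY 1 was called, beside 2.96% of all genes. For treated SHR against WKY 4 were called higher and 1 lower, beside 22.9% of all genes called. Hes1 passed in both comparisons with WKY. Hes1, a transcriptional target of Notch, was at 31.1 ± 1.81 FPKM in WKY, 40.5 ± 2.39 in SHR and 45.8 ± 2.92 in treated SHR (SD, n = 3). The log2 difference was 0.37 for SHR (adjusted p = 0.0443 by limma) and 0.54 for treated SHR (adjusted p = 0.00545). The second call held in all 16 alternatives and the first in 5, being lost without any single WKY or SHR library or treated library 2, and with both other scalings. Hey1, another Notch target, was 0.79 higher in treated SHR than in WKY (adjusted p = 0.0196), and the ligand Dll1 rose by 0.74 (adjusted p = 0.0377). Dll4, another ligand and named after its values were seen, also rose (adjusted p = 0.0487). Pdgfra, a receptor of fibroblasts, fell by 0.86 (adjusted p = 0.0345), while the Pdgfrb mean was higher. Without WKY library 1 or 3, or treated library 2 or 3, each of these 4 calls was lost. Leaving out SHR library 1 or 2 also ended those on Dll1, Dll4 and Pdgfra, SHR library 3 those on Dll4 and Pdgfra, and WKY library 2 that on Dll4. Both other scalings ended the call on Dll4, and testing without the filter or the 2 groups alone ended those on Dll1, Dll4 and Pdgfra. The list median was 0.27 in SHR and 0.17 in treated SHR against WKY.

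Receptors through which mural cells answer vasoactive signals, 14 with 12 tested, had a median difference of 0.46 for SHR against WKY and 0.715 for treated SHR against WKY. Avpr1a, the vasopressin receptor of smooth muscle that collecting duct cells also express, rose in both, from 3.65 ± 0.296 FPKM in WKY to 7.06 ± 1.26 in SHR and 13.9 ± 3.11 in treated SHR (SD, n = 3; adjusted p = 0.0475 and 0.001 by limma). The SHR call held in 7 of 16 alternatives and was lost without any single WKY or SHR library, treated library 2 or the low-value filter, and the treated call held in all 16. In treated SHR against WKY 7 of the 12 rose and none fell, where 22.9% of all genes were called and 73.5% of those calls were higher. They included P2rx1, the ATP-gated channel of arterioles (0.74, adjusted p = 0.0106, held in all 16), Adra1d, an adrenergic receptor (0.695, adjusted p = 0.0162), and Ednrb, an endothelin receptor shared with endothelium (1.11, adjusted p = 0.0277). The calls on Adra1d and Ednrb were lost without WKY library 3, treated library 2 or treated library 3, and in a fit of the 2 groups alone, and that on Ednrb also without WKY library 1.

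Between treated and untreated SHR limma called no gene of any of these 5 lists. The unadjusted p was under 0.05 for 2 genes of the contractile apparatus and for 1 of each other list. The smallest adjusted p was 0.281, for Avpr1a (log2 difference 0.88). Pdlim3 (0.54), Tbx2 (0.62), Gata3 (0.67) and Pdgfa (-0.46), a PDGF ligand, had the smallest p of the other 4 lists.

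Genes of other kidney cells differed in level beside the markers. Endothelial genes, 12 of 12 tested, had a positive log2(FPKM + 1) difference between SHR and WKY for 12, beside 64.1% of all genes. Their median was 0.44, with 0 called (unadjusted p under 0.05 for 2), beside 2.96% of all genes called. Podocyte genes, 8 of 8 tested, had a median of 0.81 for SHR and 0.92 for treated SHR against WKY. Of them 0 (unadjusted p under 0.05 for 7) and 3 were called, beside 2.96% and 22.9% of all genes. Over all 13127 genes tested, 2566 had an unadjusted p under 0.05 between SHR and WKY. Summed endothelial levels were 139, 332 and 280 FPKM in WKY libraries 1 to 3, 404, 271 and 325 in SHR and 266, 409 and 402 in treated SHR, with the same library lowest in each group as for the summed markers. Genes of medullary segments, 8 of 9 tested, had medians of 0.765 and 1.228 in the same comparisons. All 8 were higher in SHR than in WKY, whereas 6 were higher and 2 lower in treated SHR than in WKY. The water channel Aqp3 was at 45.8 FPKM in WKY, 136 in SHR and 218 in treated SHR. Umod, the most abundant of them, and Slc12a1 had lower means in treated SHR than in WKY, at 2080 against 2640 FPKM and 161 against 269 FPKM, and neither passed the test. Summed medullary levels overlapped, at 2630 to 4010 FPKM in WKY and 2720 to 4070 in treated SHR. Proximal tubule genes ran lower, with medians of -0.43 and -1.16. Their summed level was 12600 to 16900 FPKM in WKY, 11500 to 13100 in SHR and 4780 to 12400 in treated SHR. Treated libraries 1 to 3 were at 12400, 5770 and 4780, so library 1 stood apart. Kap alone gave most of this sum, at 11774, 8536 and 11775 FPKM in WKY and 9236, 3040 and 3163 in treated SHR. The part of these shifts in the values of the mural markers was not tested.

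The 12 fibroblast genes, 9 tested, had medians of 0.30 for both comparisons with WKY and -0.29 for treated against untreated SHR. In treated SHR against WKY 2 were called higher and 1, Pdgfra, lower, beside 22.9% of all genes called. Those higher were Gsn (1.16, adjusted p = 0.015 by limma) and Col1a1 (1.05, adjusted p = 0.0159). Each kept its call in 14 of 16 alternatives, and Pdgfra in 7. Without WKY library 3 all 3 calls were lost. Striated muscle was nearly absent: 11 of 12 of its genes stayed under 1 FPKM in every library, and Acta1 reached 1.04 in a single library. Of the urothelial genes 7 of 8, the uroplakins among them, stayed under 1 FPKM in every library. The exception, the epithelial keratin gene Krt7, was at 132 FPKM in WKY, 160 in SHR and 220 in treated SHR (log2 difference of treated SHR from WKY 0.715, adjusted p = 0.0443 by limma), a call kept in 5 of 16 alternatives and lost under both other scalings, without the filter, in a fit of the 2 groups alone, and without any single library except WKY library 2 and treated library 1. Of the adipose and adrenal genes 5 of 7 stayed under 1 FPKM in every library, the fat genes Plin1 and Lep among them. Adipoq and Cidec, also fat genes, had means of 12.0 and 39.2 FPKM in WKY and 16.3 and 32.6 in treated SHR. Over the whole table the FPKM of a library summed to between 563643 and 589838.

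**Figure D4:**
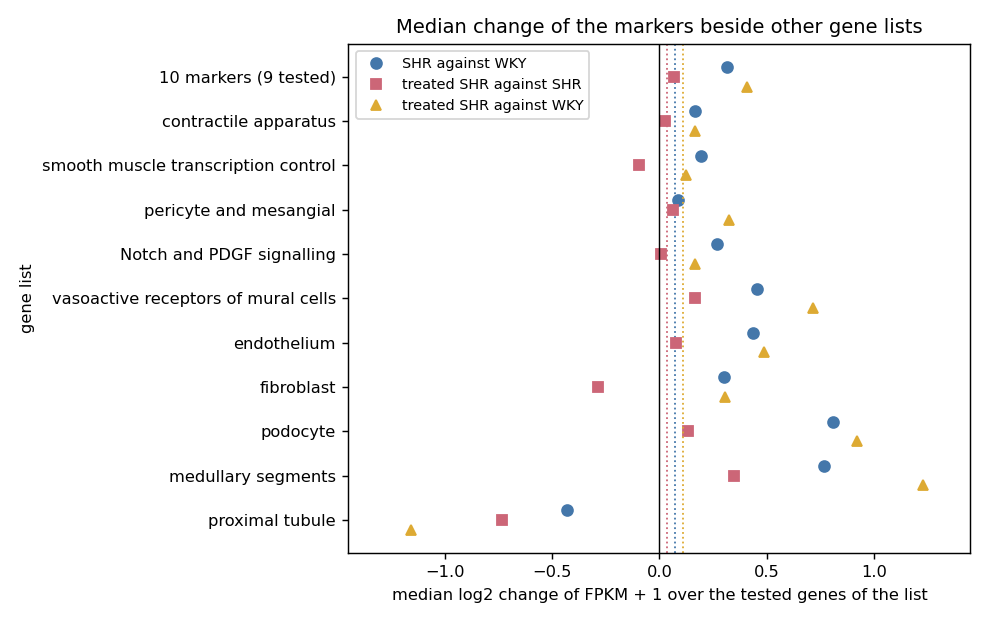
Median log2 change of FPKM + 1 (horizontal axis) over the tested genes of each list (vertical axis), for SHR against WKY (circles), treated against untreated SHR (squares) and treated SHR against WKY (triangles), with dotted lines at the medians over all genes. The markers lie at 0.31, 0.07 and 0.41, podocyte genes at 0.81, 0.13 and 0.92, and proximal tubule genes at -0.43, -0.73 and -1.16.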

How the data were processed

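Kidney RNA in 9 libraries, 3 for each of 3 groups, was read on a BGISEQ-500 in single-end runs of 50 bases, per the labels' protocols. Per the submitters' processing notes, HISAT2 2.0.4, Bowtie2 2.2.5 and the build Rnor_6.0 were used. The deposited values are FPKM computed by the authors, per the file headers, rounded to 2 decimals. The sources used here do not give the expression program, annotation or read depth, so no counting interval could be computed. FPKM is relative, so a change in abundant transcripts shifts all others.

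Genes with at least 1 FPKM in at least 3 of 9 libraries (13127 of 19367) were tested as log2(FPKM + 1) with limma 3.58.1 in R 4.3.3. The fit had group means over all 9 libraries, an intensity trend in the prior and two-sided Benjamini-Hochberg adjustment over all genes tested. It was checked on simulated data. Alternatives were a pseudocount of 0.1, no filter, 2 scalings, the 2 groups compared alone, a replicate block and leaving out each library. Leaving out WKY library 1 and treated library 1 together was added after seeing the data.

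Named genes were the 10 markers, up to 4 called genes of each other list by smallest p (else up to 2 with the smallest unadjusted p), the most abundant genes of lists of other cell types, and the 10 genes most like the markers. Not every gene the rule takes is reported here by name, and list counts and medians include them. The members and lists were chosen with earlier results of these data known. Close copies of Acta2 and Myl9 were named for their similarity. Promoter sequence came from RefSeq (GRCr8), a build other than that of the expression values. Plots were drawn with Python 3.11.15.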

Additional observations from a re-analysis of the deposited data

How the results depend on the processing

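The markers kept the sign of their difference in SHR against WKY and in treated SHR against WKY under every alternative run. Between treated and untreated SHR the signs of Tagln, Cnn1, Des, Notch3 and Pdgfrb turned when 1 library was left out, with no call either way. The number of markers called in treated SHR against WKY, 0 as reported, was 1 (Rgs5) with quantile normalisation, 1 with median-of-ratios scaling, 0 to 3 with 1 library left out, and 2 without WKY library 1 and treated library 1 together. Single libraries whose omission gave a call were treated library 1, WKY library 2 (Pdgfrb), SHR library 1 (Rgs5, adjusted p = 0.0452 by limma) and SHR library 3 (Des, adjusted p = 0.0464).

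Counts over all genes moved more. For SHR against WKY, 388 genes were called, and 167 to 626 with 1 library left out (626 without treated library 1). For treated against untreated SHR, 0 were called, 1 with the replicate block, 0 to 830 with 1 library left out (830 without treated library 1) and 1145 without WKY library 1 and treated library 1 together. For treated SHR against WKY, 3010 were called, 1026 in a fit of those 2 groups only, and 593 to 4791 with 1 library left out. The share of calls that were higher was 62.1% for SHR against WKY (49.6% with quantile normalisation, 51.6% with median-of-ratios scaling) and 73.5% in the comparison of treated SHR to WKY (59.9% and 54.2%). With the replicate block the calls were 282 and 2700 in the comparisons with WKY, and 0 markers were called in any. Of the other genes named, the block ended the calls on Hes1 and Avpr1a in SHR against WKY and on Mrvi1, Mrtfa, Dll1 and Dll4 in treated SHR against WKY. Same-numbered libraries correlated between -0.328 and 0.456 in their deviations from the group means, and differently numbered ones between -0.532 and 0.327. With 3 libraries a group these values cannot show whether the numbers pair the libraries, and the labels do not say. Read depth is unknown, and for Lmod1 and Cnn1 the rounding of FPKM adds to the error.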

Other observations

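A few further mural and pericyte genes are given as values, picked after these were seen. Mcam, an adhesion molecule of mural and endothelial cells, was at 3.76, 8.43 and 9.46 FPKM in WKY, 11.29, 8.44 and 11.86 in SHR, and 8.31, 11.37 and 12.91 in treated SHR (log2 difference of treated SHR from WKY 0.59, adjusted p = 0.162 by limma). Gucy1a1, a subunit of the nitric oxide receptor of smooth muscle, was at 1.18, 3.71 and 1.6 FPKM in WKY, 3.18, 1.36 and 2.17 in SHR, and 1.24, 3.27 and 2.33 in treated SHR.

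Most other pericyte and mesangial genes did not run with Rgs5. Of the 14 tested, the difference of treated SHR from WKY was positive for 11 and negative for 3. Mcam (0.59) and Ndufa4l2 (0.19, adjusted p = 0.502 by limma) were among the former, and neither passed. The pericyte genes that follow had lower means in treated SHR than in WKY, at low levels. Kcnj8, the potassium channel subunit of pericytes, was at 0.56, 2.35 and 0.95 FPKM in WKY and 0.50, 1.67 and 0.78 in treated SHR (log2 difference -0.17, adjusted p = 0.713 by limma). Its partner Abcc9 was at 0.75, 1.34 and 0.88 FPKM in WKY and 0.47, 0.92 and 0.23 in treated SHR, and it did not pass the filter on low values. Higd1b stayed at or under 0.42 FPKM and was listed at 0 in 3 libraries. Of the factors that build smooth muscle, Myocd stayed at or under 0.18 FPKM and Tbx18 was listed at 0 in every library.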
